A study of Sus scrofa with 2 samples.

Results

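The transcripts described here code for RNA helicases and for the factors that bind, shorten, uncap and degrade messenger RNA, as measured in porcine cumulus-oocyte complexes (COC). They were chosen by gene symbol alone, as all probes whose symbol in the platform annotation begins with DDX, DHX, CNOT, CPEB, EXOSC, PABP, PUM2, YTHD, IGF2BP, PAN2, PAN3, DCP1, DCP2, XRN, UPF, SMG followed by a digit, or PAIP. The rule found 140 probes of 86 genes, out of 43794 probes and 11938 named genes on the array. It used no measured value. The members fell into 15 prefix groups, from 38 DDX probes of 25 genes to 1 PUM probe, and 29 genes had several probes while 57 had 1.

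The RNA came from a pair of single complexes of Large White pigs, named COC7 and COC4 in the labels, which were taken from mature follicles of slaughterhouse gilts. The labels give no treatment or other condition that sets the complexes apart. Both RNAs were amplified and hybridized together on each of 2 arrays of the EMPV1 platform, a 2-colour oligonucleotide array designed on transcripts of early pig embryos. COC7 carried Cy5 and COC4 carried Cy3 on array 1, and the dyes were exchanged on array 2. There was thus 1 complex on each side and no test between them was possible, so that a gene or group is described by its values, its counts and its median beside the same over all probes. A COC holds the oocyte with the somatic cumulus cells around it, and in such a mixture fewer cells of a type and less RNA per cell cannot be told apart.

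An oocyte that has finished growth makes little new RNA and relies on messages stored in its cytoplasm. Many of these are kept silent with short poly(A) tails, are translated when the tail is lengthened, and are removed when the CCR4-NOT or PAN2-PAN3 deadenylases shorten the tail and the decapping enzyme, XRN1 or the RNA exosome degrades the rest. Helicases of the DEAD-box (DDX) and DEAH-box (DHX) families use ATP to unwind or remodel RNA and its proteins at nearly every step, from splicing and ribosome assembly to translation and decay, in cumulus cells as well as in the oocyte.

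All values are log2 ratios of COC7 over COC4, after the sign of array 2 was turned, and a mean of both arrays above 0 is called the COC7 side and one below 0 the COC4 side. Where a pair of ratios is given for a gene or probe, the first is that of array 1 and the second that of array 2. The value after ± is how far either array lay from the mean. It is a technical spread that also holds the effect of the dye, which cancels in the mean where it is equal on both arrays, and it says nothing about the spread between complexes. The deposited ratio likely has Cy5 on top of Cy3, as the labels list the Cy5 channel first and limma, which the methods name, forms ratios in that way. With the opposite direction all signs given below would be reversed at once, and COC7 would stand for COC4. A ratio carries no level, and whether a transcript was detected was not examined here.

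Over the whole array, the part of the ratios that differs between the arrays had the larger spread. The array part of a probe, the difference between the turned arrays divided evenly between them, holds the effect of the dye and the noise of the arrays, which cannot be told apart here. It had an SD of 0.25 over all 43794 probes, against 0.19 for the COC7 over COC4 mean, and 37.1% of all probes kept their sign on both turned arrays. The turned arrays correlated negatively over all probes (Pearson's r = -0.27, Spearman's rho = -0.33), with the same RNAs behind every point. Of the cell type markers, the 11 measured of 12 oocyte genes had a median of 0.039 with 7 on the COC7 side and 4 below 0, and ZAR1 was the highest at 0.70. The 13 measured of 16 cumulus and granulosa genes had a median of -0.46, with 3 above 0 and 10 on the COC4 side, and TNFAIP6 was the lowest at -1.28. The medians of the oocyte markers were -0.37 on array 1 and 0.38 on array 2, whereas those of the cumulus and granulosa markers were -0.35 and -0.17. The 2 measured of 4 blood genes lay at 0.046 (CD14) and -0.017 (PTPRC), and the 5 measured of 6 theca and stroma genes had a median of -0.0098. The part of this difference between the marker lists in the values below was not tested.

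The members as a set lay close to equality between the complexes, with more probes on the COC7 side than on the COC4 side. Their median was 0.039, against 0.0031 over all probes, and 85 of 140 (60.7%) were on the COC7 side, against 50.9% of all probes and 52% of the named probes. The member medians on the single arrays were 0.0092 on array 1 and 0.077 on array 2, and 71 and 98 of the 140 probes were above 0 there, so the excess above 0 was on array 2. Over all 43794 probes, 22139 were above 0 on array 1 and 21774 on array 2. Over the 18121 named probes, these counts were 8737 and 9677. Counted by genes, 49 members were on the COC7 side and 37 below 0, with a median of 0.031. The members ranged from -0.78 to 0.48, and the SD of their means was 0.19, equal to that of all probes at this precision.

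No member probe was 2-fold apart, where 0.174% of all probes were (76 of 43794, either side). At 1.5-fold, 0 members were on the COC7 side, against a background of 0.916% (401 probes), and 1 was on the COC4 side (0.714%), against 0.788% (345 probes). That member was DHX15. These shares are near the background. A looser count was added after the data had been seen, of probes past 1.2-fold whose sign held on both arrays. It held 14 member probes of 13 genes on the COC7 side, or 10% of the members against 4.56% of all probes, and 3 on the COC4 side, or 2.14% against 4.27%. This count was not made over the named probes alone, whose means had an SD of 0.20, against 0.19 over all probes. The genes on the COC7 side were CNOT6L, DDX20, DDX42, DDX56, DHX8, DHX32, DHX38, DHX58, EXOSC3, PABPC1L, PABPN1L, PAN3 and SMG6, and those on the COC4 side were DDX3X, DHX15 and UPF3B. Both arrays put 65 of 140 member probes (46.4%) on the same side, 47 of them above 0 and 18 below. This compares with 37.1% of all probes (8181 above 0 and 8062 below) and 38.1% of the named ones (3602 above 0 and 3309 below).

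**Figure D1:**
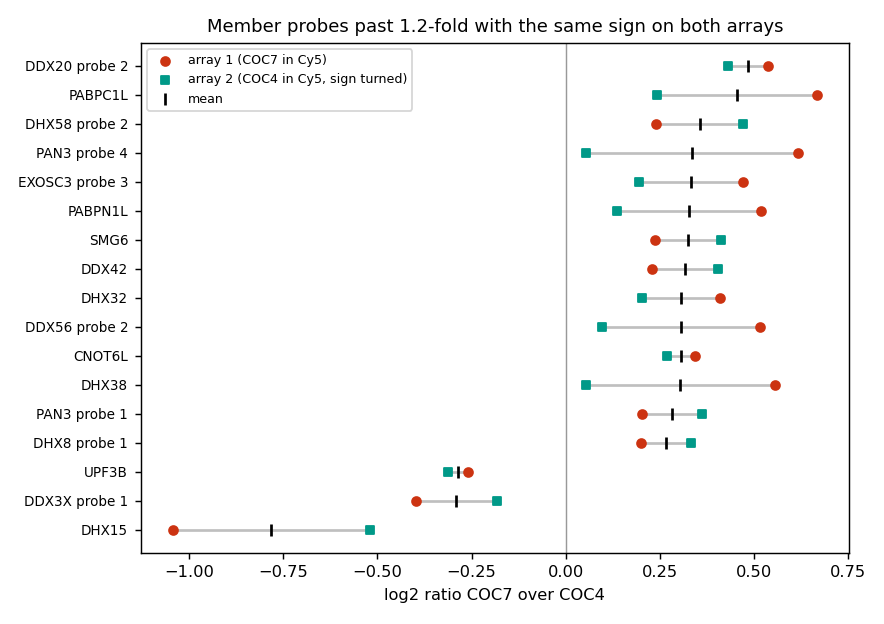
The 17 member probes past 1.2-fold whose sign held on both arrays. The horizontal axis is the log2 ratio of COC7 over COC4, circles are array 1, squares are array 2 with its sign turned, and bars are their mean. DHX15 stood apart at -0.78, UPF3B and DDX3X were the others below 0, and the 14 probes above 0 had means up to 0.48.

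The array part had the larger spread among the members too. Its SD was 0.25, against 0.19 for the mean of both arrays, which holds noise as well. In size it exceeded the mean in 75 of 140 probes, against 27551 of 43794 over all probes. These are the probes whose turned arrays differed in sign. The count thus only repeats that 46.4% of the members kept their side, against 37.1% of all probes. The array part was below 0, that is, the turned ratio was lower on array 1 than on array 2, in 87 of 140 probes (62.1%) with a median of -0.053. The share was 52.1% for the named probes, with a median of -0.011, and 48.8% for all probes, with a median of 0.0060. Among the helicases it was below 0 in 43 of 62 probes (69.4%), with a median of -0.073. The turned arrays correlated with r = -0.28 and rho = -0.20 over the 140 probes, which share both RNAs and, for 29 genes, their target.

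**Figure D2:**
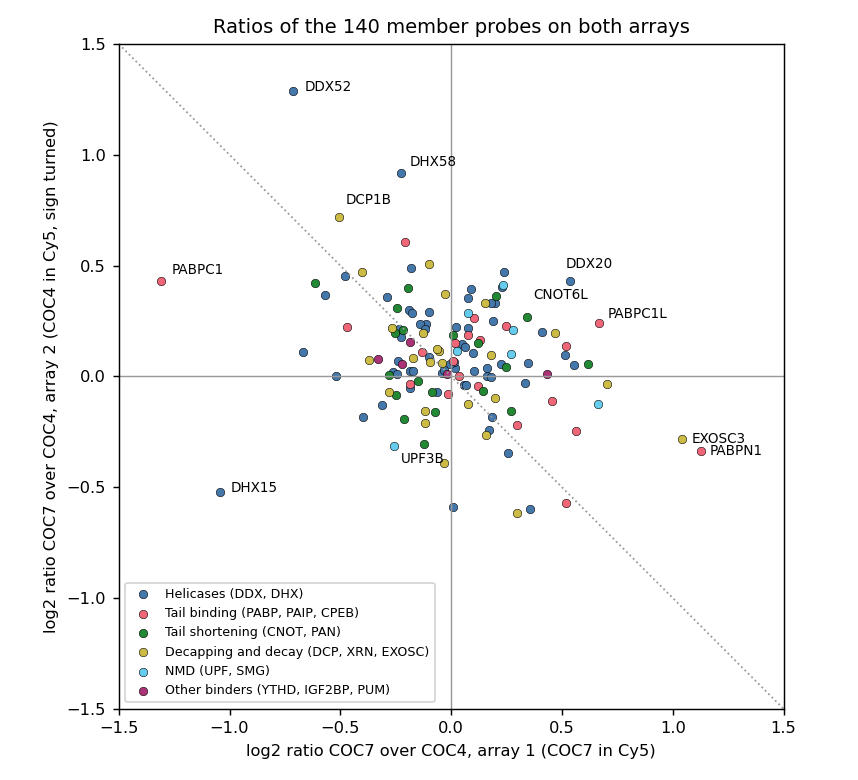
Log2 ratios of COC7 over COC4 of the 140 member probes on array 1 (horizontal) and on array 2 with its sign turned (vertical), coloured by role. Probes in the upper right and lower left parts kept their side on both arrays (65 probes), and the dotted line marks a mean of 0. DHX15 is alone at the far lower left, whereas PABPC1, DDX52, PABPN1 and EXOSC3 lie far out where the arrays differ in sign.

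Among the RNA helicases, 39 of 62 probes were on the COC7 side and 23 below 0, with a median of 0.048. The median was 0.048 for the DDX probes and 0.041 for the DHX probes, and it lay higher on array 2 than on array 1 in both families (0.077 and -0.013 for DDX, 0.14 and 0.015 for DHX). By genes, the DDX median was 0.0096, with 13 of 25 genes on the COC7 side, and the DHX median was 0.088, with 9 of 15 genes there. Helicases of the spliceosome included the lowest member, DHX15, and the highest DDX gene by the mean of probes, DDX42.

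DHX15, which takes the spliceosome apart after splicing, had ratios of -1.04 on array 1 and -0.52 on array 2, averaging -0.78 ± 0.26 or 1.72-fold on the COC4 side. Both arrays gave the same side, and the probe stood at rank 113 from the lowest of all 43794. It was the only member past 1.5-fold, it had 1 probe, and it was past 1.5-fold on array 1 but not on array 2. DHX38, needed for the second step of splicing, had 0.56 and 0.053 (0.30 ± 0.25). The 3 probes of DHX8, which releases the spliced message, averaged 0.27, 0.026 and 0.25 over both arrays. DDX42, a helicase bound to the U2 snRNP, had 0.23 and 0.40 (0.32 ± 0.087). DDX46, which acts as the spliceosome forms, had -0.48 and 0.45 (-0.014 ± 0.47), and was among the 5 member genes with the largest array part. DDX23, a helicase of the U5 snRNP, had -0.19 and 0.30 (0.055 ± 0.24). DHX16, which activates the spliceosome, had probe means of 0.055, 0.22 and -0.010. Of these, DHX15, DHX38 and DDX42, each with 1 probe, kept their side on both arrays. So did 2 of the 3 DHX8 probes and 1 of the 3 DHX16 probes.

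DDX20, a subunit of the SMN complex that builds the small nuclear ribonucleoproteins, held the highest member probe. Its ratios there were 0.54 and 0.43 (0.48 ± 0.053), and it stood at rank 667 from the highest of all probes. Its other probe had 0.049 and 0.14 (0.097 ± 0.048), so that both probes were on the COC7 side on both arrays but by different amounts. DHX32 was the highest DHX gene, with 0.41 and 0.20 (0.31 ± 0.10).

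DDX21, a nucleolar helicase of ribosome assembly, was the lowest DDX gene, with -0.67 on array 1 and 0.11 on array 2 (-0.28 ± 0.39), and the arrays differ in sign. DDX56, which also acts in ribosome assembly, had probe means of 0.14 and 0.31, both above 0 on both arrays. DDX54 had probe means of 0.24 and 0.15, again above 0 on both arrays. The 3 DDX52 probes averaged 0.061, 0.29 and 0.099, but the second of these was -0.71 on array 1 and 1.29 on array 2, the widest gap of any member probe.

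DDX3X, which helps to translate messages with structured leaders, had probe means of -0.29 ± 0.11 (-0.40 and -0.18) and -0.12 ± 0.48 (0.35 and -0.60). Both probe means were on the COC4 side, and the arrays differ in sign for the second probe. DDX6, a repressor of stored messages and partner of the decapping enzyme, had -0.52 and 0.0039 at one probe (-0.26 ± 0.26) and -0.12 and 0.21 at the other (0.048 ± 0.16). DHX29, which assists the scanning ribosome, averaged -0.29, 0.12 and 0.00058 at its 3 probes. DHX9, also called RNA helicase A, had -0.31 and -0.13 (-0.22 ± 0.090), and DHX36, which unwinds G-quadruplexes, had 0.26 and -0.34 (-0.043 ± 0.30). DDX4, the germ-line helicase VASA, had 0.17 and -0.24 (-0.034 ± 0.21), so the arrays gave opposite sides for this oocyte gene.

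The RNA sensors of antiviral defence belong to the same families by name. DHX58 (LGP2) had probe means of 0.36, 0.34 and -0.10, of which the first kept its sign on both arrays (0.24 and 0.47). The difference of 0.46 between its highest and lowest probe was the largest between probes of any member gene. DDX58 (RIG-I) had 0.35 and 0.062 (0.20 ± 0.14). The 2 DDX60 probes averaged -0.075 and 0.064.

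**Figure D3:**
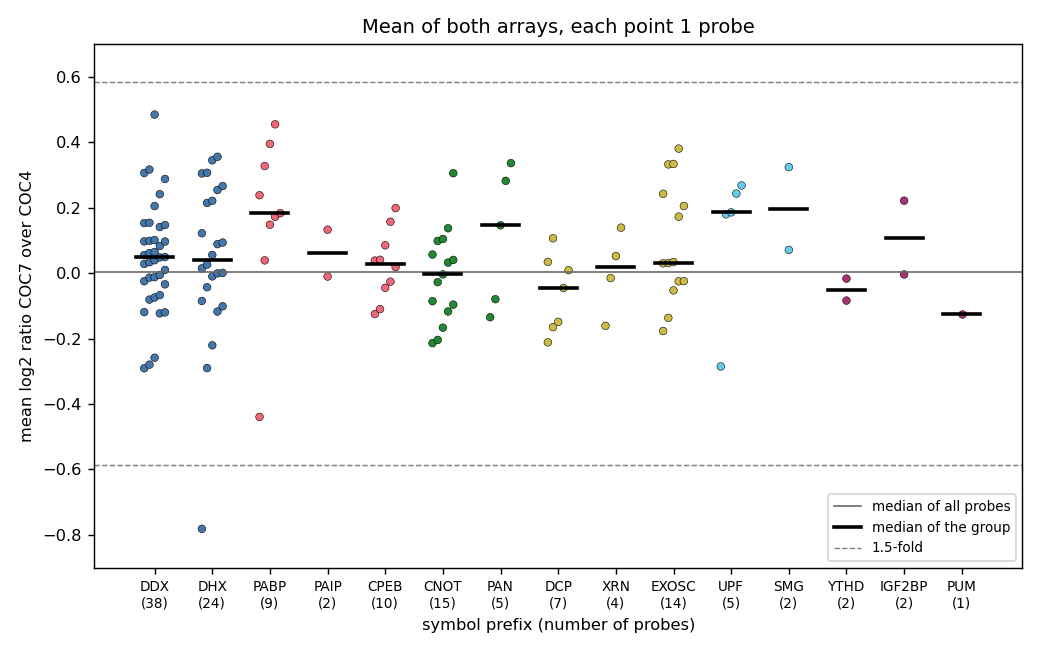
Mean log2 ratio of COC7 over COC4 over both arrays for each member probe (1 point each), by symbol prefix with the number of probes in parentheses. Thick bars are group medians, the thin line is the median of all probes (0.0031) and dashed lines mark 1.5-fold. The UPF, SMG and PABP medians are the highest (0.19, 0.20 and 0.18), the PUM probe is the lowest (-0.13), and DHX15 alone passes a dashed line.

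The prefix groups differed in their medians from -0.13 for the single PUM probe to 0.20 for the 2 SMG probes, but most held few probes and no test was possible. Of the 15 medians, 11 were above 0 and 4 below (CNOT, DCP, YTHD and PUM). Among groups of at least 5 probes, PABP (0.18), UPF (0.19) and PAN (0.15) had the highest medians and DCP (-0.046) the lowest. The UPF group reached 5 probes only with the UPF0639 probe, which matches by its letters alone. Without it, the 4 UPF probes had a median of 0.21. The same side on both arrays was found for 6 of 9 PABP, 4 of 5 PAN, 4 of 5 UPF and 2 of 2 SMG probes, for 8 of 15 CNOT, 18 of 38 DDX and 10 of 24 DHX probes, and for 4 of 10 CPEB, 4 of 14 EXOSC, 2 of 7 DCP, 1 of 4 XRN and 0 of 2 YTHD probes. In the PABP, PAN, UPF and SMG groups the medians of both single arrays were above 0 (0.25 and 0.17, 0.20 and 0.044, 0.27 and 0.10, 0.13 and 0.26 on arrays 1 and 2). The same held for the DHX group (0.015 and 0.14) and the IGF2BP group (0.21 and 0.010). Without the UPF0639 probe, 3 of 4 UPF probes kept their side. The UPF medians were then 0.28 on array 1 and -0.013 on array 2. For CNOT the single-array medians were opposite and of like size, -0.15 and 0.15.

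Poly(A)-binding proteins cover the tail and promote translation. Of 9 PABP probes, 8 were on the COC7 side. PABPC1L, the embryonic form that prevails in Xenopus and mouse oocytes, was the highest member gene. It had 0.67 on array 1 and 0.24 on array 2, averaging 0.45 ± 0.21 or 1.37-fold, and stood at rank 796 from the highest of all probes. PABPN1L, the embryonic counterpart of the nuclear tail-binding protein, had 0.52 and 0.14 (0.33 ± 0.19). Both of these kept their side on both arrays. PABPC1, the main cytoplasmic form of somatic cells, was the only PABP gene on the COC4 side, with -1.31 on array 1 and 0.43 on array 2. Its mean of -0.44 was smaller than its spread of 0.87, which was the largest array part of any member gene, and the arrays gave opposite sides. PABPN1, which sets the length of new tails in the nucleus, was likewise split by array, with 0.79 and -0.22 over its 2 probes (0.28 ± 0.51). PABPC4 differed from these, as its 4 probes had means of 0.24, 0.039, 0.18 and 0.15, each above 0 on both arrays, and a gene mean of 0.15 ± 0.029.

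The partners of these proteins had means within 1.2-fold. PAIP1, which helps PABPC1 to promote translation, had 0.078 and 0.19 (0.13 ± 0.055). PAIP2B, an inhibitor of PABPC1, had -0.13 and 0.11 (-0.011 ± 0.12).

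The CPEB proteins bind an element in the tail end of stored messages and control when these regain their tails, a role known best from Xenopus oocytes. None of the 10 probes was past 1.2-fold, and 6 were on the COC7 side, with a median of 0.028. CPEB1, the form of the oocyte, had probe means of 0.20 ± 0.41, -0.11 ± 0.077 and -0.045 ± 0.033. Its first probe had -0.21 and 0.61, so the positive mean came from array 2, and the other 2 probes were below 0 on both arrays. CPEB2 had 0.30 and -0.16 over its 3 probes (0.071 ± 0.23). CPEB3, with 1 probe, had 0.019 and 0.15 (0.085 ± 0.066) and was the highest of the 4 genes. CPEB4 had 0.057 and -0.13 over its 3 probes (-0.037 ± 0.094), and none of these kept its side.

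**Figure D4:**
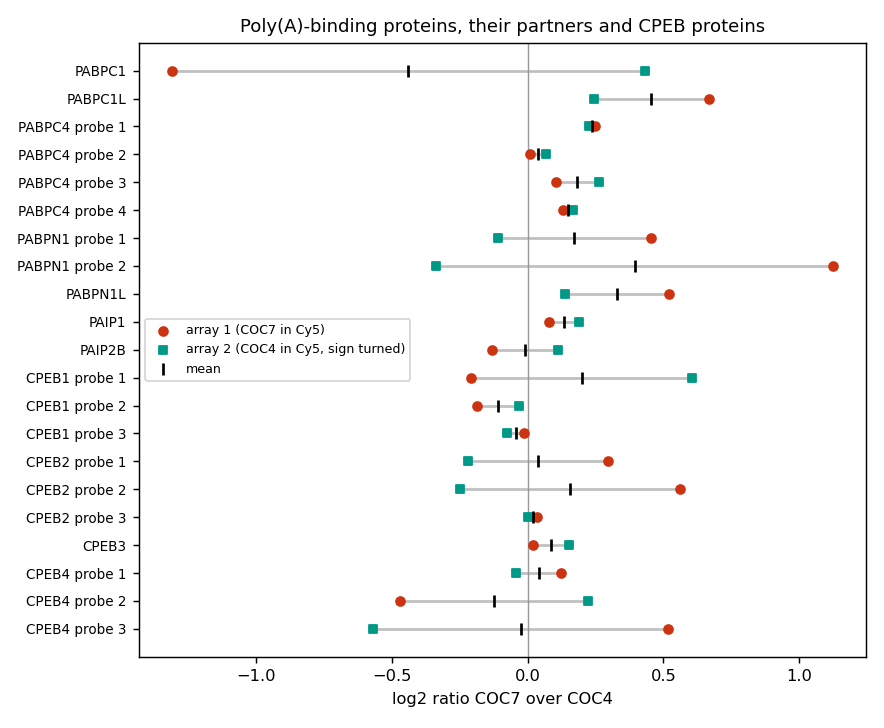
Log2 ratio of COC7 over COC4 on array 1 (circles), on array 2 with its sign turned (squares) and their mean (bars) for each probe of the PABP, PAIP and CPEB genes. PABPC1L, PABPN1L and the 4 PABPC4 probes lie above 0 on both arrays, whereas PABPC1 and PABPN1 cross 0 with wide gaps between arrays.

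CCR4-NOT is the main cytoplasmic deadenylase, built on the scaffold CNOT1. Its 15 probes were evenly divided, 7 above 0 and 8 below, with a median of -0.0041. CNOT6L, a catalytic subunit that shortens the tails of maternal messages in mouse oocytes, stood highest, with 0.34 and 0.27 (0.31 ± 0.037). Its close relative CNOT6 had probe means of -0.17 ± 0.082 and 0.057 ± 0.21. CNOT7, a catalytic subunit of another family, had 5 probes between -0.12 and 0.14, of which 2 were above 0. CNOT1 had -0.61 and 0.42 (-0.096 ± 0.52) and was also among the 5 genes with the largest array part. CNOT2, which pairs with CNOT3 in the complex, was the lowest gene, at -0.064 and -0.19 over 3 probes (-0.13 ± 0.062). Of its probes, -0.20 ± 0.010 and -0.21 ± 0.092 were on the COC4 side on both arrays, and the other was at 0.040 ± 0.11. CNOT6L was thus the only CNOT gene past 1.2-fold whose sign held on both arrays.

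The other deadenylase differed between its subunits. PAN3, the adaptor that brings it to the message, had 4 probes with means of 0.28, 0.15, -0.080 and 0.34, each of one sign on both arrays. The gene mean was 0.17 ± 0.074, and 2 of its probes were past 1.2-fold. PAN2, the catalytic subunit, had -0.28 and 0.0082 (-0.13 ± 0.14). Because PAN3 supplied 4 of the 5 probes, the median of 0.15 for this group is mostly that of 1 gene, and it was 0.018 with genes in place of probes.

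After the tail is gone, DCP2 removes the cap with the help of DCP1A or DCP1B. DCP2 had 5 probes with means from -0.21 to 0.034, and 3 were on the COC4 side, of which 2 kept this side on both arrays. Its gene mean was -0.097 ± 0.042. DCP1A had -0.17 and 0.082 (-0.046 ± 0.13). DCP1B had -0.51 and 0.72 (0.11 ± 0.61) and was again among the 5 genes with the largest array part. All 7 DCP probes were below 0 on array 1 and 5 were above 0 on array 2.

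The exonucleases that act next had all their probe means within 1.2-fold. XRN1, which degrades uncapped messages in the cytoplasm, had 0.18 and 0.098 (0.14 ± 0.040). XRN2, which acts in the nucleus, had 0.13 and -0.22 over 3 probes (-0.042 ± 0.17), and none of them kept its side.

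The RNA exosome degrades RNA from the other end. Of its 14 probes, 9 were on the COC7 side, with a median of 0.032, but only 4 kept their side on both arrays. EXOSC3, a subunit of the cap of the complex, was the highest, and its 3 probes had nearly equal means of 0.38, 0.33 and 0.33. Their arrays were far apart, with 1.04 and -0.28, 0.70 and -0.036, and 0.47 and 0.19, so that 1 of the 3 was above 0 on both. EXOSC5, of the ring, had 0.15 and 0.33 (0.24 ± 0.089). EXOSC10, a catalytic subunit in the nucleus, had probe means of -0.14 ± 0.018 and 0.030 ± 0.083. EXOSC7 was the lowest gene, with -0.016 and -0.15 over 3 probes (-0.085 ± 0.069).

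Nonsense-mediated decay removes messages with early stop codons through the helicase UPF1 and its partners. Of the 6 probes for these factors, 5 were on the COC7 side, 5 kept their side on both arrays, and the median was 0.21. UPF1 had probe means of 0.27 ± 0.39 (0.66 and -0.13) and 0.19 ± 0.086 (0.27 and 0.10). UPF2, which joins UPF1 to UPF3B, had 0.28 and 0.21 (0.24 ± 0.036). SMG6, the endonuclease of the pathway, had 0.24 and 0.41 (0.32 ± 0.088), and SMG5, which recruits a phosphatase to UPF1, had 0.027 and 0.11 (0.071 ± 0.044). UPF3B, which links UPF2 to the exon junction complex, was the exception at -0.26 and -0.31 (-0.29 ± 0.027). A further probe carries the symbol UPF0639, which matches the rule by its letters alone. Its accession belongs to PLEKHD1 in RefSeq, it is no decay factor, and it had 0.074 and 0.28 (0.18 ± 0.11).

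The remaining members bind messages by sequence or by a methyl mark. YTHDC2 and YTHDF3, readers of N6-methyladenosine, had -0.22 and 0.054 (-0.084 ± 0.14) and -0.19 and 0.15 (-0.017 ± 0.17). For both, the arrays gave opposite sides. IGF2BP2, which stabilises its targets, had 0.43 and 0.0099 (0.22 ± 0.21), and IGF2BP1 had -0.019 and 0.011 (-0.0043 ± 0.015). PUM2, a repressor of its target messages, had -0.33 and 0.080 (-0.13 ± 0.21).

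Probes of one gene share a target and are not replicates, but they show how far a value depends on the probe. Among the 29 member genes with several probes, 11 had all probes on the COC7 side, 2 had all on the COC4 side (DDX3X and EXOSC7), and 16 had probes on both. The share on one side was 44.8%, against 46% of the 3325 named genes with several probes. Of those 3325 genes, 800 had all probes on the COC7 side and 728 had all on the COC4 side. The 90 pairs of member probes had a median difference of 0.14, against 0.12 over 11873 pairs of all named genes, and 57.8% of pairs had the same sign, against 58.7%. No member gene had probes more than 1.5-fold apart, and 81 of the 90 pairs were within 1.2-fold.

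**Figure D5:**
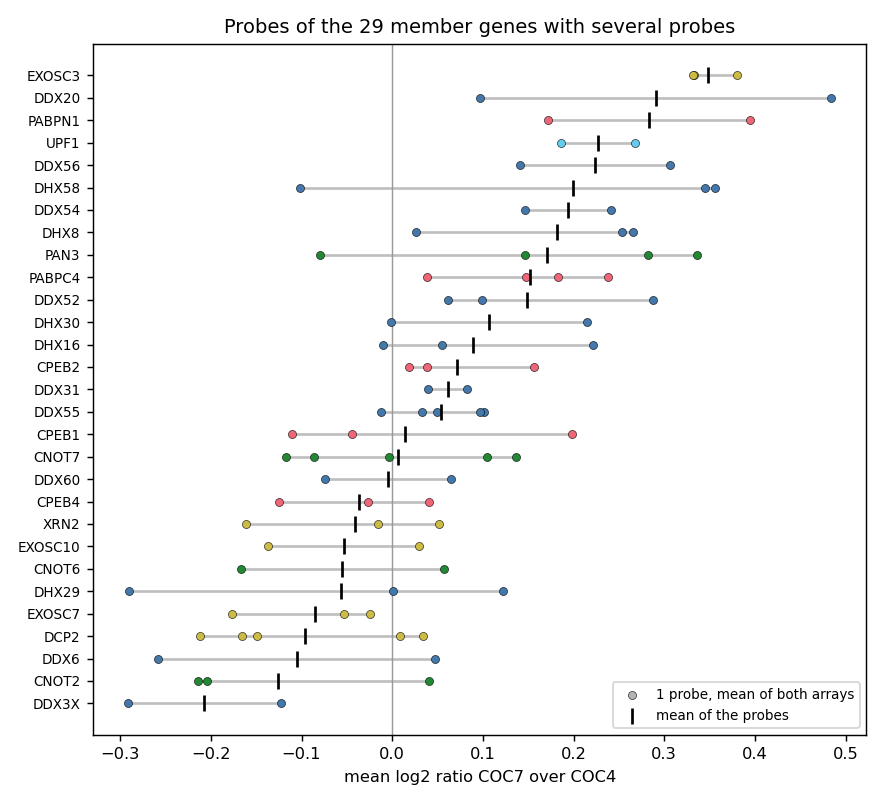
Mean log2 ratio of COC7 over COC4 over both arrays for each probe of the 29 member genes with several probes, ordered by the mean of the probes (bars) and coloured by role as in the plot of one array against the other. EXOSC3 has its 3 probes between 0.33 and 0.38, whereas DHX58, PAN3 and DHX29 reach across 0.

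Other genes of maternal message control were taken from a list of 107 symbols outside the prefixes, of which 72 were measured. Of these, 42 were on the COC7 side and 30 below 0, with a median of 0.021 (0.016 on array 1 and 0.022 on array 2), and 25 kept their side on both arrays. By probes, 42 of 135 (31.1%) kept their side, against 37.1% of all probes and 38.1% of the named ones. The threshold of 1.5-fold was passed by 2 of the list genes above 0 and by 1 below. Of all 11938 named genes, 115 (0.963%) were past 1.5-fold on the COC7 side and equally many on the COC4 side. CSTF1, a subunit of the cleavage factor that makes the end to which the tail is added, had 0.56 and 1.03 (0.80 ± 0.23). ZAR1, a binder of maternal messages that is also among the oocyte markers, had 0.50 and 0.90 (0.70 ± 0.20). BTG1, of a family that recruits CCR4-NOT, had -0.36 and -0.98 (-0.67 ± 0.31).

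Among the genes listed as poly(A) polymerases and their relatives, PAPD4, the cytoplasmic poly(A) polymerase, was the highest, with 0.31 and 0.26 (0.29 ± 0.024). The 5 measured of 8 genes in that list, PAPD4 included, had a median of -0.047, with 2 on the COC7 side and 3 below 0. The 6 measured of 8 CPSF, SYMPK and CSTF genes, which cleave new transcripts before a tail is added, had a median of 0.17, with 5 on the COC7 side. The 4 measured of 6 BTG and TOB genes had a median of -0.090, with 1 on the COC7 side. BTG4, the form that mouse oocytes need to clear maternal messages, had -0.56 and 0.37 (-0.098 ± 0.47). Helicases with other names (EIF4A1, EIF4A2, EIF4A3, SKIV2L and SKIV2L2) ranged from -0.11 to 0.15, and 3 of 5 were on the COC7 side. ZAR1L, a relative of ZAR1, had 0.64 and 0.31 (0.47 ± 0.16). CASC3, of the exon junction complex to which UPF3B binds, had -0.11 and -0.50 (-0.30 ± 0.19). It was the lowest of the 4 measured of 5 genes listed for that complex. Their median was -0.055, with 1 above 0 and 3 below, and only 1 kept its side on both arrays. These smaller groups were drawn from the list afterwards.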

How the data were processed

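The authors amplified total RNA of single complexes in 2 rounds, labelled it with Cy3 and Cy5, read the scans in GenePix Pro with subtraction of background, and normalized each array and the set before using limma in FlexArray. The deposited values are their normalized log2 ratios of 43794 probes on 2 dye-swapped arrays. Neither how they were normalized nor which dye is on top of the ratio is given in the sources used here. The number of arrays limits the precision.

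The sign of array 2 was turned, both arrays were averaged, and probes of a gene were averaged. Symbols came from the platform annotation, which names 18121 probes and leaves 25673 unnamed here. Of 40 member probes with an accession, 23 matched RefSeq (Sscrofa11.1), 1 with another symbol, and 85 of 86 member symbols are in that table. No coordinates are given, as the builds differ. Another table with 2 columns of values, whose names match no label, was not used, nor were channel signals.

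With 1 complex on each side, probes were counted past 2-fold, the threshold of the study, and past 1.5-fold and 1.2-fold. The rule for the members reads symbols only, but these gene families and the lists were chosen with earlier results of these data known. Genes were named by rule, as those past 1.5-fold whose sign held on both arrays, the highest and lowest of each prefix group, all of a group of 5 genes or fewer, those whose probes differ by more than 1.5-fold, and the 5 with the largest array part. Other genes were named after their values were seen. Alternatives were single arrays, centring, a common scale, other units and summaries of probes, and a fold on each array. The steps were tested on simulated data. Scripts ran in Python 3.11.15 with pandas 2.3.3 and numpy 2.4.6, rank correlations came from scipy 1.17.1, and figures were drawn in matplotlib 3.10.9.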

Additional observations from a re-analysis of the deposited data

How the results depend on the processing

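Single arrays, in which the dye is not balanced, moved the counts most. On array 1 or array 2 alone, 4 to 6 member probes were past 1.5-fold on the COC7 side (0 by the mean) and 3 to 5 on the COC4 side (1 by the mean), and 1 to 2 and 0 to 2 were past 2-fold (0 and 0 by the mean). At 1.5-fold these were 4.29% and 3.57% of the members on array 1, against 3.95% and 3.06% of all probes, and 2.86% and 2.14% on array 2, against 2.56% and 2.35%. At 2-fold they were 1.43% and 1.43% on array 1, against 0.904% and 0.511%, and 0.714% and 0% on array 2, against 0.361% and 0.384%. With 1.5-fold asked of each array, 0 members were left on the COC4 side. The median over the members was 0.0092 to 0.077 on single arrays, 0.038 with each array centred, 0.041 with both arrays on 1 scale and 0.031 with genes in place of probes. Of the 15 prefix medians, 3 took the other sign on array 1 alone, 6 on array 2 alone, 1 on a common scale (CNOT, 0.011), and 0 after centring or with genes as units, where the PABP median was 0.28. Of 39 genes named by the rule, 4 took the other sign on array 1 alone, 15 on array 2 alone, 1 on a common scale and 0 after centring. Of the 12 of these with several probes, 1 did so with the median of probes and 4 with the probe nearest to 0.

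No paired analysis was possible because both arrays hold the same pair of complexes and no result comes from a test. The other deposited table and a count of motif letters in proteins, both planned, were not run, as the columns of the table name no sample and no protein sequences were at hand.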
